A study of Mus musculus with 18 samples.

Results

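Dividing absorptive progenitors with low Olfm4 were taken from the Lgr5+ libraries of a single-cell RNA-seq study of mouse ileal epithelium. A barcode was included when it held 1000 to 18000 UMIs (unique molecular identifiers, each counting 1 captured transcript), 200 to 4000 genes and under 5% mitochondrial UMIs, and when 4 further conditions on its transcripts were met. At least 8 UMIs had to come from the 8 mitosis genes Ube2c, Cenpf, Top2a, Prc1, Nusap1, Aurka, Cdc20 and Ccnb2. Olfm4, a secreted glycoprotein of crypt base cells, had to take under 0.1% of the UMIs. Rbp7, a cytoplasmic retinol-binding protein, or Dmbt1, a secreted scavenger receptor, had to have at least 1 UMI. The goblet cell genes Muc2, Zg16, Clca1 and Fcgbp had to stay together under 1% of the UMIs. These conditions were met by 2217 of 25204 barcodes that passed the general limits in the 4 Lgr5+ libraries (8.80%), and by 37.7% of the 5880 dividing cells among them. Lgr5+WT replicates 1 and 2 gave 376 and 452 such cells, and Lgr5+Setdb1KO replicates 1 and 2 gave 276 and 1113, so that 50.2% of all cells came from 1 library.

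Both genotypes were on a C57Bl6 background, carried the Lgr5-GFP-CreERT2 knock-in, were 60 to 65 days old and received 70 mg/kg tamoxifen intraperitoneally 5 days before analysis, and GFP+ ileal crypt cells were sorted. The Lgr5+Setdb1KO mice were also Setdb1lox/lox, so that Cre, driven by the Lgr5 locus in a mosaic fashion, deletes part of Setdb1, which encodes a histone H3 lysine 9 methyltransferase. The paper reports that this sort enriched GFP+ cells incompletely and that other cells co-purified. Whether the selected Lgr5+Setdb1KO cells carry the deletion was not checked here, so genotype below refers to the mouse. The lineage-traced libraries came from mice of the same genotypes that additionally carried the nTnG reporter, in which descendants of Cre-active cells keep GFP. There were 2 biological replicates of each genotype in each sort, which limits every comparison between genotypes below.

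In the small intestine, stem cells at the crypt base divide under Wnt and Notch signals, and their daughters divide further in a transit-amplifying zone before they leave the cell cycle. Absorptive daughters switch on genes for lipid, sugar and peptide uptake on their way to the villus, while secretory daughters, marked early by the transcription factor Atoh1, become goblet, Paneth, enteroendocrine or tuft cells. Promoters of many mitosis genes hold the cell cycle homology region (CHR), a short element through which they are repressed outside G2 and M phase, and CCAAT boxes bound by NF-Y, which mainly activates them.

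The CHR letters TTTGAA or TTCGAA, searched on both strands, were present in 25 of 34 RefSeq promoter windows of the mitosis gene list (73.5%), against 19.2% of all 32851 windows and 12.5% of the 32 windows of an enterocyte gene list. Windows ran from 250 bases before to 50 bases after each gene start of build GRCm38.p6, and 32 of the 40 mitosis genes and 31 of the 36 enterocyte genes had one. CCAAT, on both strands, was in 76.5% of the mitosis windows, 31.2% of the enterocyte windows and 37.4% of all windows, and both motifs were in 64.7%, 6.25% and 7.52%. A match is a description of letters and was not tested as a binding site. Stretches of 30 bases around the match are shown for 3 mitosis genes that are prominent in the cells described here, on the gene's own strand with the CHR letters (or their reverse complement) in capitals. Cdkn3 (phosphatase acting on cyclin-dependent kinases) is shown at chr14:46760418-46760447 (plus strand), Plk1 (mitotic kinase) at chr7:122159453-122159482 (plus strand) and Cdk1 (the kinase that drives entry into mitosis) at chr10:69352910-69352939 (minus strand).
Cdkn3: ttccgcgcgtctTTCAAAgacttcctctga
Plk1: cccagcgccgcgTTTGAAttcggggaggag
Cdk1: taccgcggcgagTTTGAAactgctggcact

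The libraries held 50722926 to 81876035 UMIs, and the selected cells together 21149597. Their median UMI number was 11221 and 9786.5 in the Lgr5+WT replicates and 13418 and 7388 in the Lgr5+Setdb1KO replicates, so the second Setdb1KO library was the shallowest per cell and held the most cells. Levels are given below as CPM, the UMIs of a gene per 1000000 UMIs summed over the cells of a population in 1 library, always in the order Lgr5+WT 1, Lgr5+WT 2, Lgr5+Setdb1KO 1, Lgr5+Setdb1KO 2. Pairs of libraries shared 3 to 24 passing barcode sequences, and at most 2 among the selected cells. RNA free in the suspension, bounded by the Paneth cell gene with the lowest ratio to near-empty barcodes (up to 100 UMIs), made up at most 2.11%, 3.06%, 1.13% and 6.19% of the selected cells' UMIs. These limits are point ratios without counting error, and that of Lgr5+Setdb1KO 1 rests on Mptx2 at 2.74 CPM.

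Setdb1 was measured at 11.2, 8.86, 6.86 and 5.35 CPM in the selected cells. Both knockout libraries were below both wild-type libraries, with a log2 difference of -0.75 (SE 0.244) that did not pass the threshold (edgeR quasi-likelihood test, adjusted p = 0.319). The floxed exon lies away from the 3′ end that these libraries read, so the level does not check the deletion. In the same selection of the lineage-traced libraries Setdb1 was at 8.30 to 12.1 CPM, from 3 to 33 UMIs, and both Setdb1-KO libraries were above both wild-type libraries; the counts were too low for the test.

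The cells were chosen by their own levels of the mitosis genes, Olfm4, Rbp7, Dmbt1 and the goblet genes, and these levels are given as a description only. Rbp7 was at 290, 236, 224 and 388 CPM and Dmbt1 at 758, 874, 586 and 518 CPM. Ube2c, the ubiquitin-conjugating enzyme of the anaphase-promoting complex, was at 1009, 1125, 957 and 1120 CPM, and Olfm4 at 231, 219, 193 and 260 CPM. Among markers outside the selection, Birc5 (survivin, of the chromosomal passenger complex) was at 634, 615, 595 and 578 CPM and Cdkn3 at 110, 121, 155 and 135 CPM, each within a narrow range over the 4 libraries. Fabp1, the liver-type fatty acid-binding protein of enterocytes, was at 290, 874, 2089 and 460 CPM, a wide range in which the genotypes overlapped.

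Although the cells came from a sort on Lgr5-driven GFP, Lgr5, the R-spondin receptor that marks crypt base stem cells, was at 1.42, 0.886, 1.10 and 0.911 CPM, against 25.4, 18.2, 17.2 and 13.5 CPM in dividing cells with Olfm4 at or above 0.1% of UMIs (dividing Olfm4-high cells). No UMI of the GFP transgene was counted in the selected cells of any library, which allows up to 0.142 CPM of counted GFP over all 4 (3 counts, counting error only). In the dividing Olfm4-high cells GFP was at 0.623, 1.00, 0 and 0.604 CPM. GFP transcripts were thus scarce also in the cells with Lgr5. How much of the transgene transcript the GFP feature covers is not given in the sources used here, so its count of 0 is no limit on the expression of the transgene.

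Markers of other cell types were not absent. The summed level of 9 goblet genes was 3284, 3719, 1640 and 4454 CPM, and that of 8 Paneth genes was 1145, 2247, 1264 and 6177 CPM, against 39472 to 73943 CPM for the Paneth list in near-empty barcodes. The 9 enteroendocrine genes summed to 265, 301, 74.9 and 320 CPM and the 8 tuft genes to 32.8, 20.4, 44.7 and 67.9 CPM. The 9 T cell genes summed to 57.7, 33.7, 0.823 and 1.14 CPM, with none of the 9 genes at 0 in all 4 libraries but 7 of them under 1 CPM when pooled. Plasma and B cell genes stayed at or under 2.14 CPM and stromal genes between 2.37 and 3.42 CPM, with Iglc2, Col1a1 and Pecam1 at 0 in all 4 libraries. The label absorptive therefore holds for a population that also contains secretory transcripts, as the levels below show in more detail.

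To place the selected cells between their neighbours, they were set beside 3381 dividing Olfm4-high cells (928, 988, 333 and 1132) and 2896 cells with low Olfm4 and Rbp7 or Dmbt1 but at most 1 UMI of the mitosis genes (421, 690, 326 and 1459). The non-dividing cells also had to hold under 1% of UMIs from each of the enteroendocrine, tuft, Paneth and T cell lists, a limit that the dividing cells do not have. Olfm4, Rbp7, Dmbt1 and the mitosis genes separate these populations by construction, and genes that vary with them must follow. The differences are therefore descriptions without a test, and the numbers of genes past the threshold of the edgeR fit are given only beside the share over all genes. Against the Olfm4-high cells, 21.7% of 10419 genes were past it on the higher side and 20.0% on the lower side. Against the non-dividing cells, these shares were 24.8% and 26.0% of 9692 genes.

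Relative to the Olfm4-high dividing cells, the crypt base program was lower throughout. All 24 genes of the crypt base list were past the threshold on the lower side, with a median log2 difference of -1.75 beside -0.02 over all genes. Ascl2, the Wnt-dependent transcription factor of stem cells, was at 8.79, 9.31, 23.0 and 17.1 CPM in the selected cells and at 149, 107, 176 and 121 CPM in the Olfm4-high cells. Axin2, a direct Wnt target, was at 9.02, 14.8, 20.8 and 15.5 CPM against 56.7, 61.4, 57.9 and 48.9 CPM. In each library, both genes were well below the level of the neighbouring dividing population. Slc12a2, a basolateral chloride cotransporter, was at 59.1, 52.3, 60.3 and 59.3 CPM against 243, 193, 193 and 176 CPM. Ifitm3, an interferon-induced membrane protein of crypt base cells, was at 200, 207, 136 and 174 CPM against 1177, 1137, 681 and 750 CPM. Other genes named by their rank in this comparison were Tubb2b (a neuronal-type tubulin, log2 difference -2.93), Rgcc (a regulator of the cell cycle, -3.44), Rgmb (a BMP co-receptor, -2.33), Igfbp4 (an IGF-binding protein, -2.39) and Sp5 (a Wnt-induced transcription factor, -2.81).

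Enterocyte genes showed the opposite order. Of 32 measured members of the enterocyte list, 26 were past the threshold on the higher side and 2 on the lower side, with a median log2 difference of 0.88. Rbp2, the cellular retinol-binding protein of enterocytes, was at 255, 386, 1113 and 625 CPM in the selected cells and at 41.3, 71.5, 78.7 and 206 CPM in the Olfm4-high cells. Sis (sucrase-isomaltase) was at 50.1, 35.9, 78.2 and 98.0 CPM against 6.65, 7.91, 2.84 and 23.2 CPM, and Krt20, a keratin of villus cells, at 29.4, 29.9, 18.4 and 26.5 CPM against 4.15, 6.24, 2.13 and 7.73 CPM. Transcripts of absorption and of mitosis were thus measured in the same population. The 2 lower members were Apoc2, an activator of lipoprotein lipase (-1.03), and Gpx2, an epithelial glutathione peroxidase (-0.23). Highly ranked genes on the higher side included Car4 (a brush border carbonic anhydrase, 2.46), Arg2 (mitochondrial arginase, 2.77), Khk (ketohexokinase, 1.31), Anxa2 (annexin A2, 1.69), Krt19 (a simple epithelial keratin, 1.12), Sfn (14-3-3 sigma, 1.32), Tm6sf2 (a factor in lipoprotein secretion, 1.82) and Reg3b (an antimicrobial lectin, 1.70).

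Of 25 measured transcription factors that act in absorptive cells, 13 were past the threshold on the higher side. On the lower side there were 5, a share no larger than that over all genes. Hnf4g, a nuclear receptor of enterocytes, was at 72.2, 76.7, 57.6 and 65.4 CPM against 36.7, 48.2, 33.1 and 44.1 CPM in the Olfm4-high cells, and Klf5, a factor of proliferating crypt cells, at 315, 263, 250 and 274 CPM against 185, 163, 129 and 164 CPM. Maf, which acts in villus enterocytes, had a log2 difference of 2.89 and Ppara, a fatty acid sensor, of 1.35. Hes1, the Notch effector that blocks the secretory fate, was at 67.0, 80.4, 75.2 and 82.1 CPM against 133, 108, 119 and 123 CPM. Hes1 thus lay in every library below the level of the Olfm4-high cells, as did the Notch receptor Notch1 (-1.58) and the Notch-modifying glycosyltransferase Lfng (-1.74) in the fit. Of 11 measured Notch genes, 5 were past the threshold on the lower side and 0 on the higher side.

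Both dividing populations had to hold at least 8 UMIs of mitosis genes, so that similar mitosis levels are set by the selection. Of 40 mitosis genes, 5 were past the threshold on the higher side, Birc5 (0.30) and the mitotic entry factor Cdca3 (0.28) among them, and 9 on the lower side, close to the share over all genes there, with a median of -0.04. Mki67, the proliferation antigen, was at 131, 97.3, 102 and 101 CPM against 139, 94.5, 124 and 109 CPM. DNA replication genes leaned to the lower side, with 16 of 29 past the threshold there and 2 on the higher side. Mcm3, a subunit of the replicative helicase, was at 28.5, 25.5, 34.6 and 26.5 CPM against 45.1, 34.1, 48.9 and 37.1 CPM, lower in each of the 4 libraries.

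**Figure D1:**
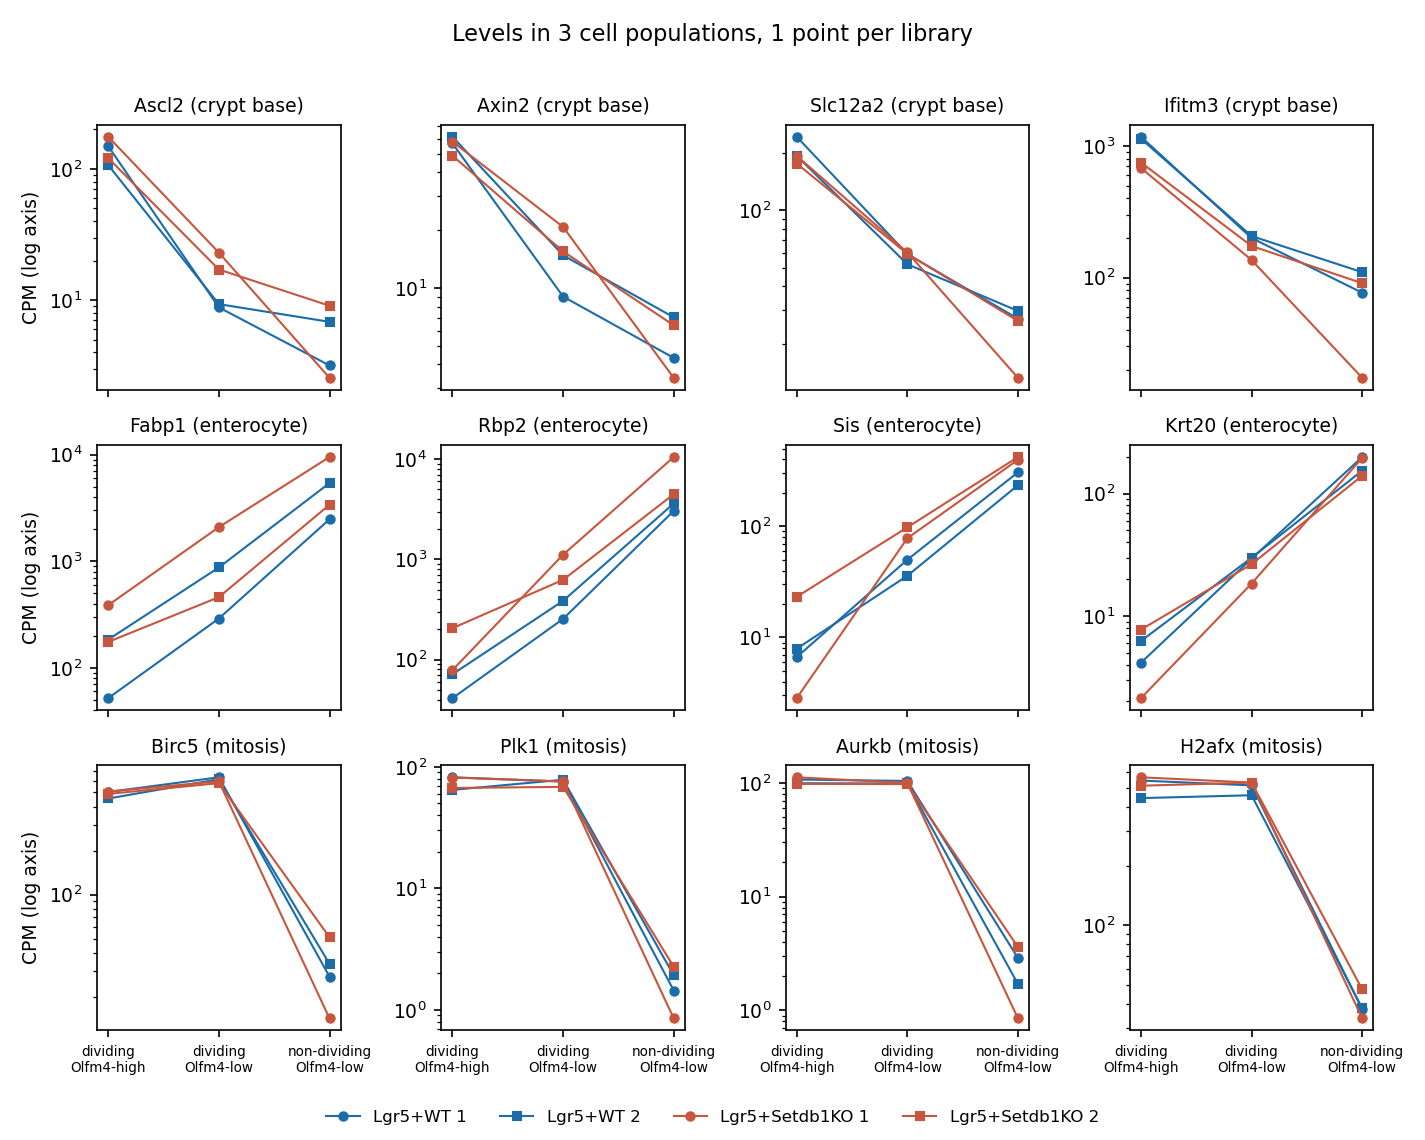
Levels in CPM (log axis) of 4 crypt base, 4 enterocyte and 4 mitosis genes in dividing Olfm4-high cells, in the dividing Olfm4-low cells and in non-dividing Olfm4-low cells, with 1 line per library (blue Lgr5+WT, red Lgr5+Setdb1KO). The dividing Olfm4-low cells lie between the other populations for the crypt base and enterocyte genes (Rbp2 at 255 to 1113 CPM, between 41.3 to 206 and 3043 to 10484) and beside the Olfm4-high cells for the mitosis genes.

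Set beside the non-dividing Olfm4-low cells, all 40 mitosis genes were past the threshold on the higher side (median log2 difference 4.23 beside 0.00 over all genes), which the selection fixes. Plk1 was at 75.5, 78.2, 75.7 and 68.3 CPM against 0.849 to 2.26 CPM, and H2afx, the histone variant phosphorylated at DNA breaks, at 514, 458, 531 and 531 CPM against 33.7 to 47.3 CPM. DNA replication genes were higher for 22 of 29 and lower for 1, Ung (uracil-DNA glycosylase, -1.01). The enterocyte list was lower for 32 of 34 measured members and higher for 1, Ada (adenosine deaminase, 0.97), with a median of -1.69. Fabp1 stood at 2475 to 9503 CPM and Rbp2 at 3043 to 10484 CPM in the non-dividing cells, so both were far above the selected cells in each library. Gsta1 (glutathione S-transferase, log2 difference -4.44), Anpep (aminopeptidase N, -3.67), Fabp6 (ileal bile acid-binding protein, -3.40) and S100g (calbindin D9k, -3.06) were among the 12 genes named on the lower side. Of the absorptive transcription factors, 14 of 25 were lower, led by Creb3l3 (a liver and gut lipid regulator, -3.79), and 5 were higher, Hnf4a (0.28), Cdx1 (0.33), Hes1 (0.35), Klf4 (0.39) and Smad4 (0.27). Of 17 measured genes for H3 lysine 9 methylation and its readers, 11 were higher and 0 lower.

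The order over the 3 populations was counted for 9579 genes measured in both fits. From Olfm4-high through selected to non-dividing cells, 27 of 32 enterocyte genes (84.4%) were higher at each step in all 4 libraries, beside 13.5% of all genes, and 16 of 19 crypt base genes (84.2%) were lower at each step, beside 13.1%. Of 10 MHC class I genes, 6 were higher at each step. Of the 40 mitosis genes, 13 were lower at each step and 7 were highest in the selected cells. The medians and ranges of 9 lists are drawn for both comparisons.

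**Figure D2:**
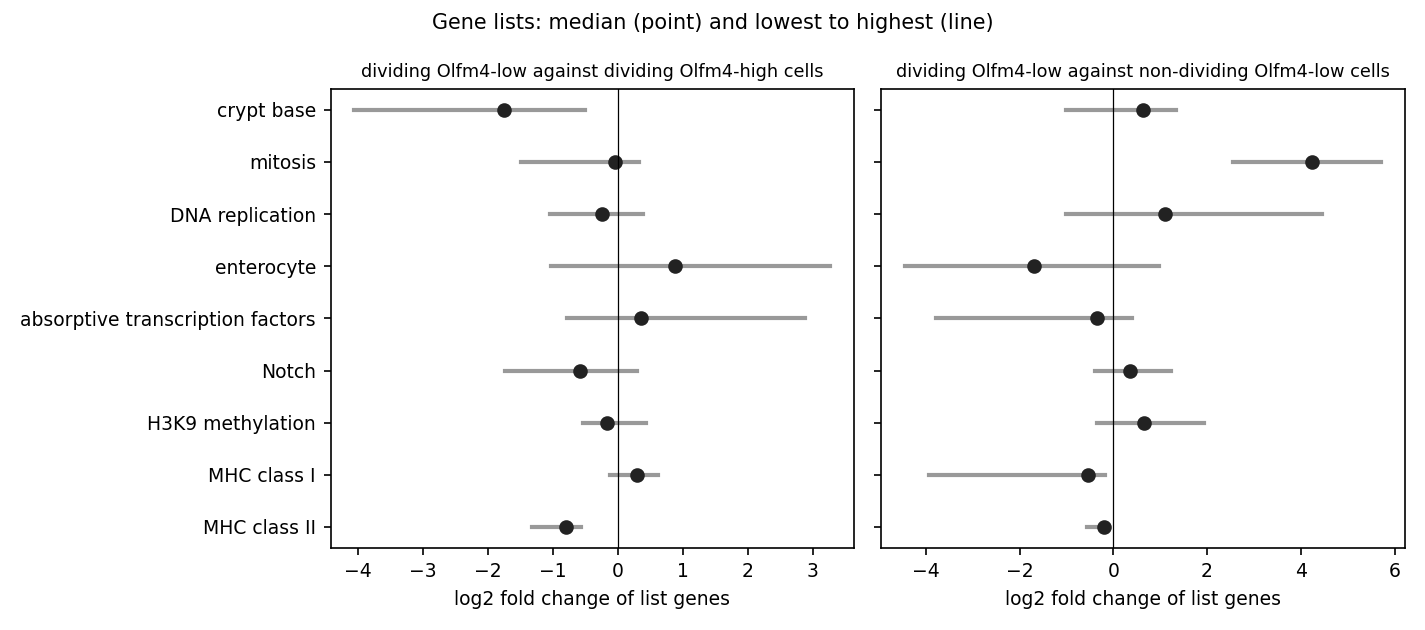
Log2 differences of the dividing Olfm4-low cells against dividing Olfm4-high cells (left) and against non-dividing Olfm4-low cells (right) for 9 gene lists, with the list median as a point and its lowest to highest gene as a line. The crypt base median lies at -1.75 on the left and 0.64 on the right, and the enterocyte median at 0.88 and -1.69.

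A further 755 of the 9579 genes (7.88%) were highest in the selected cells in all 4 libraries. Of these, 239 had a mean of at least 10 CPM in the selected cells and were past the threshold in both fits. Among these 239, only Gcg, the proglucagon gene of enteroendocrine L cells, reached a log2 difference of 1 in both. It was at 106, 21.7, 4.94 and 52.3 CPM, with a wide spread between libraries. Cdkn2d, an inhibitor of the G1 kinases CDK4 and CDK6, was at 45.6, 46.8, 39.2 and 47.3 CPM against 26.9 to 30.7 and 1.42 to 3.75 CPM. Some secretory genes were in the same group, though the limit on enteroendocrine markers applied to the non-dividing cells only. Agr2, a protein disulfide isomerase of mucin-producing cells, was at 1025, 1061, 510 and 1058 CPM against 233 to 774 and 236 to 748 CPM. Atoh1, which sets the secretory fate, was at 11.9, 13.5, 5.76 and 12.8 CPM against 3.54 to 11.8 and 0.849 to 4.90 CPM. The secretory precursor list as a whole did not follow Atoh1: against the Olfm4-high cells 2 of 7 measured members were past the threshold on the higher and 2 on the lower side (median log2 difference -0.15), and its summed level was 72.9, 89.7, 68.6 and 99.5 CPM in the selected cells against 206, 211, 185 and 182 CPM. Sox4, a transcription factor of that list, was at 28.0, 31.9, 35.4 and 41.1 CPM against 115 to 155 CPM in the Olfm4-high cells. Transcripts of enteroendocrine genes were concentrated in few cells, more so in Lgr5+WT. The 5 cells with the most held 949 of 1117 UMIs of that list in Lgr5+WT 1, 1042 of 1357 in Lgr5+WT 2, 150 of 273 in Lgr5+Setdb1KO 1 and 1556 of 2813 in Lgr5+Setdb1KO 2. At least 1 UMI of the list was in 100 of 376, 156 of 452, 104 of 276 and 432 of 1113 cells.

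Within the selected cells, the enterocyte list took a median of 1.12%, 1.26%, 1.39% and 1.19% of a cell's UMIs, with the tenth to ninetieth percentile from 0.785% to 1.71% in Lgr5+WT 1 and from 0.980% to 2.57% in Lgr5+Setdb1KO 1. Single genes varied more, with a median Fabp1 share of 0.00694%, 0.0340%, 0.147% and 0.0141%. The cell-to-cell coefficient of variation, computed on 276 cells per library thinned to 3000 UMIs over 2757 genes, had a median of 183%, 187%, 183% and 187%. The genotype means differed by 0.182 points (exact permutation test over libraries, two-sided p = 1.00, smallest possible p = 0.333). Thinned cells hold few UMIs per gene, so counting error makes up much of this coefficient. The values therefore do not show whether variability beyond counting error differed.

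Cells near the limits of the selection are described here without a test. With 8 or 9 UMIs of the mitosis genes, just inside, 49, 50, 31 and 135 cells had Fabp1 at 764, 795, 2295 and 383 CPM, and 68, 60, 32 and 156 cells with 6 or 7, just outside, had 328, 800, 1875 and 591 CPM. With Olfm4 at 0.05% to 0.1%, inside, 67, 73, 39 and 220 cells had Lgr5 at 2.52, 2.70, 0 and 0.523 CPM. At 0.1% to 0.2%, outside, 112, 148, 86 and 274 cells had it at 4.46, 1.87, 5.14 and 6.46 CPM. Lgr5 was thus higher outside the Olfm4 limit in 3 of 4 libraries, but over few UMIs, as all selected cells held 6, 4, 4 and 8. Fabp1 did not differ in 1 direction across the mitosis limit. With 1 UMI of Rbp7 and Dmbt1 together, inside, 16, 14, 10 and 96 cells had Fabp1 at 30.8, 143, 231 and 508 CPM, and 49, 41, 41 and 151 cells with none, outside, had 651, 91.1, 169 and 72.4 CPM. With goblet genes at 0.5% to 1%, inside, 7, 11, 4 and 37 cells had Fabp1 at 0, 171, 1494 and 1039 CPM, and 9, 14, 12 and 26 cells at 1% to 2%, outside, had 37.8, 399, 594 and 264 CPM. Fabp1 differed several-fold across these limits in single libraries, in both directions and over few cells.

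The share of these cells within the sorted fraction was compared between the genotypes of the mice. Among 100 passing barcodes there were 7.89 and 7.37 in Lgr5+WT and 9.55 and 9.75 in Lgr5+Setdb1KO, a difference of 2.02 points. With cells thinned to 3000 UMIs and at least 4 mitosis UMIs required, the values were 6.20, 6.28, 5.81 and 9.54, and the genotypes overlapped. Thinning left out 246, 464, 99 and 1968 passing barcodes that held fewer UMIs. Among 100 dividing cells there were 27.8 and 30.5 in Lgr5+WT and 42.5 and 46.5 in Lgr5+Setdb1KO, a difference of 15.3 points that held its direction after thinning (23.7 and 26.0 against 33.1 and 38.0). With 2 libraries against 2, each unthinned difference had a two-sided exact permutation p of 0.333, the smallest this design allows.

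The share moved together with the Olfm4 level, which is part of the selection. Olfm4 took at least 0.4% of UMIs in 40.8% and 34.1% of dividing Lgr5+WT cells and in 15.7% and 12.9% of dividing Lgr5+Setdb1KO cells, and it was at 0 in 11.2%, 13.8%, 19.2% and 21.8%. Inside the Olfm4-high population its level was 4897 and 4264 CPM in Lgr5+WT and 3257 and 2944 CPM in Lgr5+Setdb1KO, and in near-empty barcodes 1874, 1569, 601 and 919 CPM. All dividing cells made up 28.4% and 24.1% of passing barcodes in Lgr5+WT and 22.5% and 21.0% in Lgr5+Setdb1KO. After thinning these values were 26.1%, 24.1%, 17.5% and 25.1%, and the genotypes overlapped. More cells of this kind, fewer dividing Olfm4-high cells and less Olfm4 per cell cannot be told apart from these shares.

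**Figure D3:**
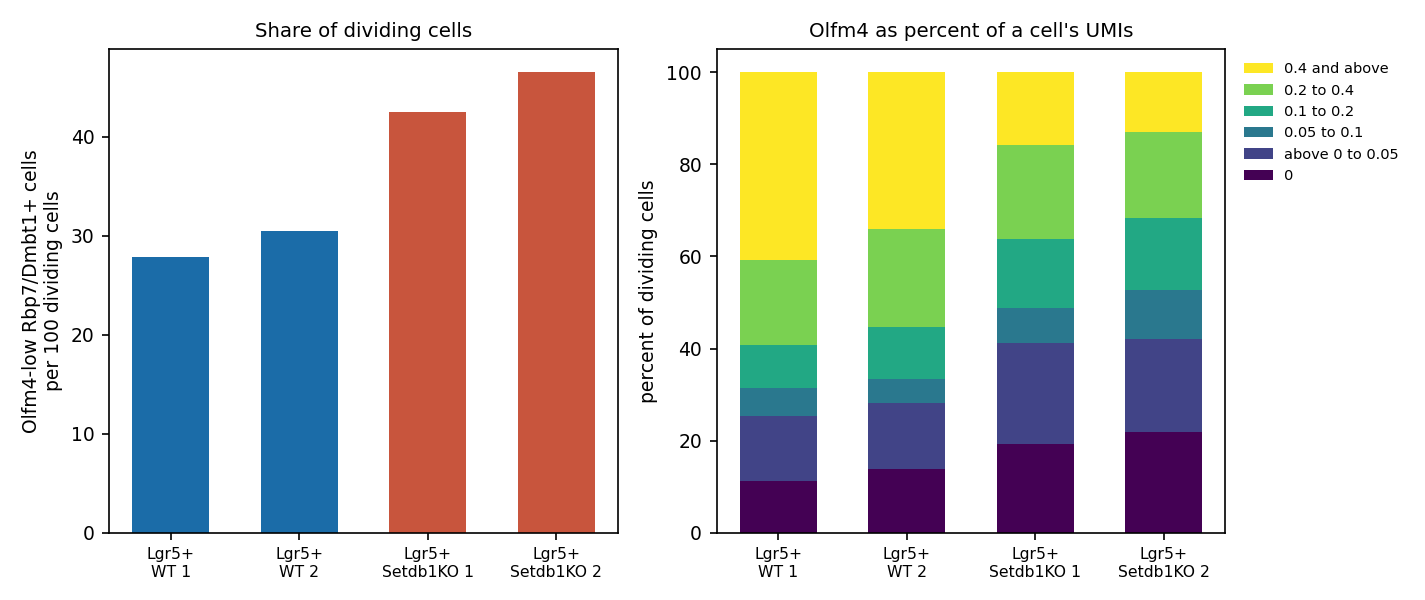
Left, dividing Olfm4-low cells with Rbp7 or Dmbt1 per 100 dividing cells, 1 bar per library; right, dividing cells of each library by the percent of their UMIs taken by Olfm4. The bars stand at 27.8 and 30.5 in Lgr5+WT and at 42.5 and 46.5 in Lgr5+Setdb1KO, and the class with 0.4% and above holds 40.8% and 34.1% against 15.7% and 12.9% of the dividing cells.

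Gene levels were then compared between genotypes inside the selected cells, with UMIs summed per library. Of 9727 genes tested, 20 were higher and 15 lower in Lgr5+Setdb1KO (edgeR quasi-likelihood test, adjusted p under 0.05), together 0.360% of those tested. The 2 libraries of 1 genotype did not overlap the other for any of the 35. Selection by adjusted p with 2 libraries per genotype makes this likely, and the share over all tested genes was not counted. At an unadjusted p under 0.05 there were 506 higher and 547 lower. The median log2 difference over all genes was -0.00. Without any 1 library the number of called genes rose to between 122 (without Lgr5+WT 2) and 305 (without Lgr5+Setdb1KO 2), 130 without Lgr5+WT 1 and 271 without Lgr5+Setdb1KO 1, so the count depends on which libraries are used.

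Adh6a, an alcohol dehydrogenase (chr3:138313286-138331134, plus strand, build GRCm38), was at 148 and 134 CPM in Lgr5+WT and at 19.2 and 21.4 CPM in Lgr5+Setdb1KO, 6.81-fold lower (log2 difference -2.77, SE 0.112, edgeR adjusted p = 1.75e-05). Alad, which makes porphobilinogen for heme, was at 117 and 123 against 291 and 271 CPM, 2.34-fold higher (log2 1.22, SE 0.0940, edgeR adjusted p = 0.00125). Both libraries of each genotype lay close together for these genes. Lipt2, a lipoyl transferase, was at 21.4 and 20.6 against 53.2 and 45.6 CPM, and Sis at 50.1 and 35.9 against 78.2 and 98.0 CPM (log2 1.06, SE 0.164, edgeR adjusted p = 0.0387). Gstm3, a glutathione S-transferase, was at 40.4 and 45.9 against 78.7 and 69.7 CPM, and Nat8, an acetyltransferase of the endoplasmic reticulum, at 4.27 and 6.43 against 17.6 and 16.9 CPM. Sis lost its call with at least 5 mitosis UMIs and with at least 2 UMIs of Rbp7 and Dmbt1. With a replicate block, Sis, Gstm3 and Nat8 were not called. Of the enterocyte list, edgeR called Sis and DESeq2 called 4 genes, and 14 had an unadjusted edgeR p under 0.05, with 17 of 33 measured members on the positive and 16 on the negative side and a median of 0.09.

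Gm42031, a long noncoding RNA (chr8:85125872-85132289, minus strand), was at 5.46 and 1.77 against 67.2 and 91.8 CPM (log2 4.50, SE 0.317, edgeR adjusted p = 0.00104). Snhg1, a host transcript of small nucleolar RNAs, was at 114 and 106 against 238 and 239 CPM (log2 1.12, SE 0.0874, edgeR adjusted p = 0.00125). Lamtor3, a subunit of the lysosomal Ragulator scaffold, fell from 68.4 and 56.1 to 22.2 and 16.9 CPM (log2 -1.71, SE 0.147, edgeR adjusted p = 0.00227). Arhgap11a, a GTPase-activating protein of dividing cells, fell from 58.9 and 57.6 to 22.5 and 25.5 CPM (log2 -1.25, SE 0.125, edgeR adjusted p = 0.00452). Snhg1, Lamtor3 and Arhgap11a had little spread within a genotype, while Gm42031 varied more between the wild-type libraries. Ceacam10, a secreted member of the carcinoembryonic antigen family, was at 46.5 and 70.9 against 2.74 and 7.86 CPM, and Barx2, a homeobox factor, at 19.0 and 19.9 against 1.10 and 3.64 CPM. Muc13, a transmembrane mucin, was at 307 and 314 against 154 and 175 CPM, and Cyba, the small subunit of NADPH oxidase cytochrome b, at 202 and 204 against 73.0 and 104 CPM. Pigr, the receptor that carries IgA across the epithelium, fell from 547 and 483 to 359 and 347 CPM, whereas Ly6e, a GPI-anchored surface protein, rose from 120 and 107 to 212 and 197 CPM. Rgcc was at 3.09 and 2.44 against 17.3 and 13.0 CPM. Eif3j2, a copy of an initiation factor subunit whose reads can be shared with its paralogue, was at 2.85 and 3.32 against 13.4 and 13.6 CPM.

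Some called genes were nearly silent in the wild type or rested on few cells. Plscr2, a phospholipid scramblase, had 0 and 1 UMIs in Lgr5+WT and 34 and 89 in Lgr5+Setdb1KO (9.33 and 10.1 CPM, edgeR adjusted p = 0.00392). Ccl5 and Gzma, a chemokine and a granzyme of T cells, were called lower, yet 1 cell held 210 of their 218 UMIs in Lgr5+WT 1 and 1 cell 113 of 122 in Lgr5+WT 2, against 0 and 10 UMIs in the knockout libraries. Defa21, a Paneth cell defensin with close paralogues, was at 38.7 and 31.0 against 86.7 and 184 CPM (edgeR adjusted p = 0.0437), and free RNA could supply up to 25.7, 29.1, 61.8 and 279 CPM of it. When cells with markers of other lineages were left out, 21 genes were higher and 19 lower. Ccl5 and Gzma belong to the T cell list by which cells were left out and were then no longer among the genes tested. Defa21 kept its call (edgeR adjusted p = 0.0362).

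**Figure D4:**
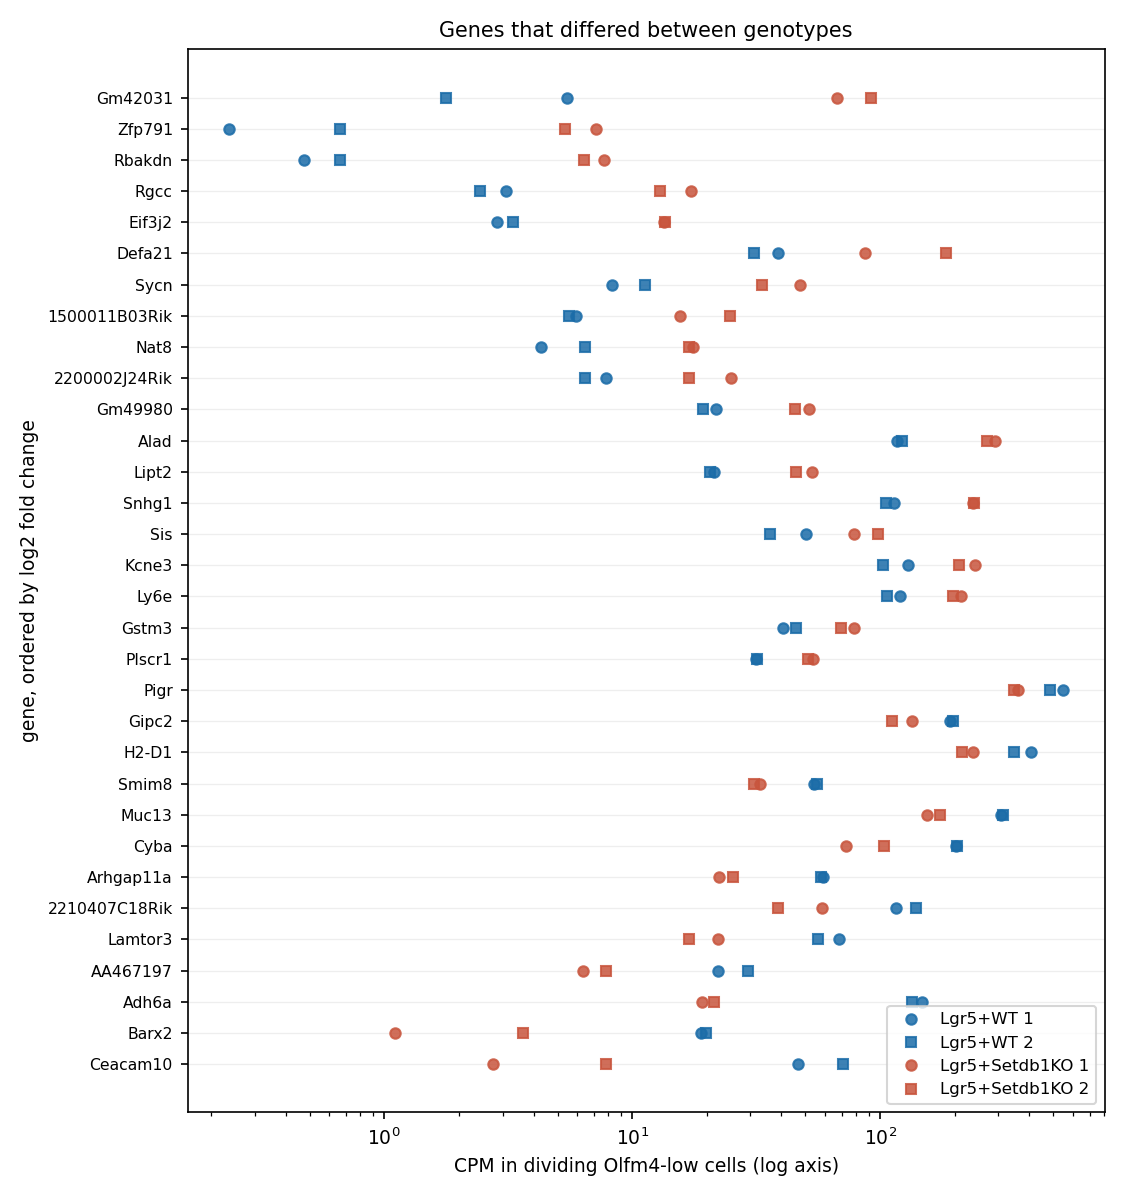
Levels in CPM (log axis) of 32 of the 35 genes that differed between genotypes in the dividing Olfm4-low cells, 1 point per library (blue Lgr5+WT, red Lgr5+Setdb1KO), ordered by log2 difference; Ccl5, Gzma and Plscr2, with libraries at 0, are not drawn. Blue and red points do not overlap for any of the genes, which their selection by adjusted p makes likely. The genes run from Ceacam10 (46.5 and 70.9 against 2.74 and 7.86 CPM) to Gm42031 (5.46 and 1.77 against 67.2 and 91.8 CPM).

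Some of the changed genes were neighbours. Of the 35 genes, 28 had at least 1 other tested gene within 50 kb, 58 tested neighbours in all, and 6 of them formed 3 pairs in which both genes were called in the same direction. All 3 pairs were higher in Lgr5+Setdb1KO and lay on the same strand. Zfp791, a zinc finger gene (chr8:85108553-85123095, minus strand), lies 2.78 kb from Gm42031 and was at 0.237 and 0.665 against 7.13 and 5.35 CPM, from 1 and 3 UMIs in the wild type. Plscr1 (chr9:92249750-92272278, plus strand), 3.32 kb from Plscr2, was at 31.6 and 31.9 against 53.8 and 51.4 CPM. Kcne3, a potassium channel subunit (chr7:100176502-100184869, plus strand), 15.1 kb from Lipt2, was at 129 and 103 against 242 and 209 CPM. Other close neighbours were not called, such as Adh1, 22.6 kb from Adh6a (log2 0.19), and Hdhd3 beside Alad (log2 0.90, edgeR adjusted p = 0.0504). Of the genes in the 3 pairs, Zfp791 and Plscr1 lost their call with a replicate block.

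All 6 measured MHC class II genes had negative log2 differences (median -1.83), and 0 were called by edgeR or DESeq2, beside 6 with an unadjusted edgeR p under 0.05. Each was called under 5 to 9 of 16 alternatives. Cd74, the invariant chain, was at 1346 and 763 CPM in Lgr5+WT and at 99.6 and 392 CPM in Lgr5+Setdb1KO (edgeR adjusted p = 0.172). Both wild-type libraries were above both knockout libraries. The summed class II level was 1872, 1073, 153 and 550 CPM in the cells and 1511, 982, 163 and 490 CPM in near-empty barcodes of the same libraries, while free RNA made up at most 6.19% of the cells' UMIs. All 10 measured MHC class I genes were on the negative side too (median -0.53), with 1 called by edgeR, 3 by DESeq2 and 9 at an unadjusted edgeR p under 0.05. Among them H2-D1, a classical heavy chain whose reads can be shared with other class I genes, was called, at 405 and 346 against 238 and 214 CPM (log2 -0.73, SE 0.0940, edgeR adjusted p = 0.0128). B2m, the shared light chain, was at 348 and 345 against 236 and 241 CPM (edgeR adjusted p = 0.0516), and it was called under 11 of 16 alternatives. Of 9 measured interferon-response genes 8 were on the negative side (median -0.60), and 0 were called by edgeR or DESeq2, beside 4 with an unadjusted edgeR p under 0.05.

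**Figure D5:**
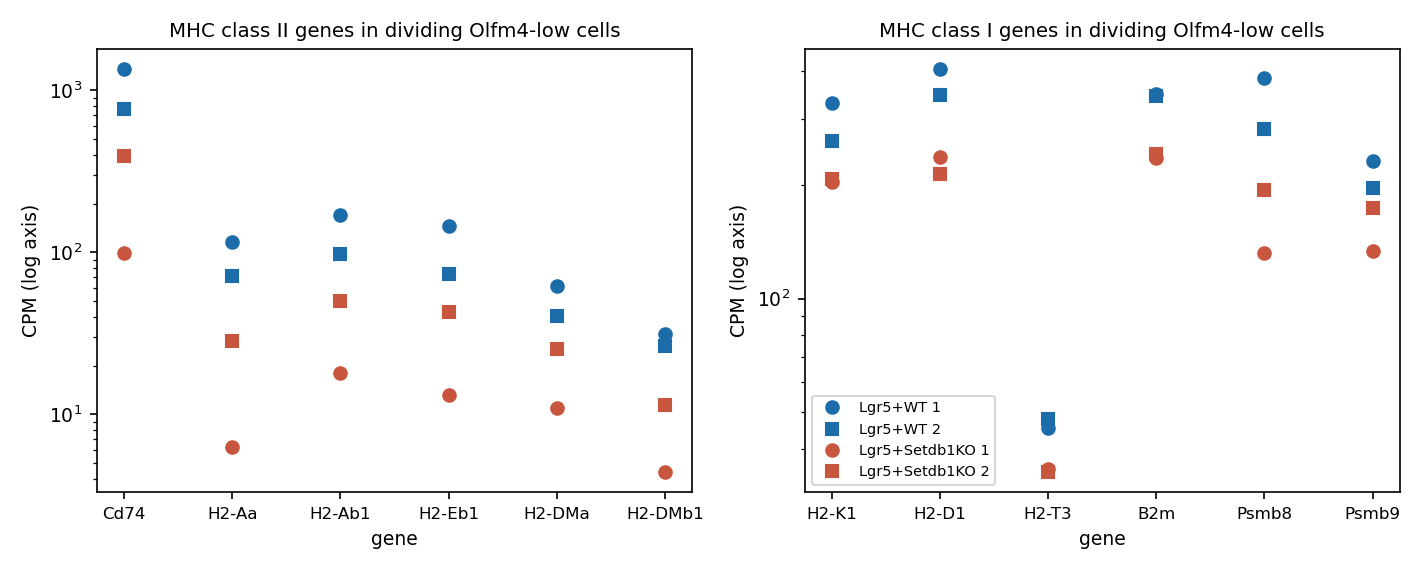
Levels in CPM (log axis) of MHC class II genes (left) and MHC class I genes (right) in the dividing Olfm4-low cells, 1 point per library (blue Lgr5+WT, red Lgr5+Setdb1KO). For Cd74 the points stand at 1346 and 763 against 99.6 and 392 CPM, and for B2m at 348 and 345 against 236 and 241 CPM.

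None of 40 mitosis genes (median log2 -0.07), 29 DNA replication genes (0.02), 19 crypt base genes (-0.01), 25 absorptive transcription factors (-0.03), 8 Notch genes (-0.08) or 17 genes of H3 lysine 9 methylation and its readers (0.05) passed the threshold of edgeR or DESeq2. At an unadjusted edgeR p under 0.05 there were 3, 2, 4, 2, 1 and 2 genes in these lists. Fabp1 had a log2 difference of 1.08 (SE 0.632, edgeR adjusted p = 0.586), with overlapping genotypes. None of 5 secretory precursor genes (median -0.27), 5 goblet genes (-0.10), 8 Paneth list genes (0.40), 8 enteroendocrine genes (-0.31) or 8 p53 target genes (-0.32) was called by edgeR or DESeq2, beside 1, 0, 2, 0 and 3 genes at an unadjusted edgeR p under 0.05. All 7 measured tuft genes were on the positive side (median 1.21) with 0 called by edgeR or DESeq2 and 5 at an unadjusted edgeR p under 0.05, at a summed 32.8 and 20.4 against 44.7 and 67.9 CPM. The T cell list had 2 measured genes, Ccl5 and Gzma, both called lower.

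Dividing Olfm4-high cells share libraries with the selected cells, so their values are only set side by side, for 6 genes picked after their values were seen. The genotype difference there was -2.28 for Adh6a, 4.74 for Gm42031, 1.40 for Alad, -1.54 for Lamtor3, -1.18 for Arhgap11a and -0.74 for H2-D1 on the log2 scale. A test of the difference between both genotype effects, in 1 fit over both populations with the library as a block, called 19 of 10871 genes (0.175%), 11 with a more positive and 8 with a more negative effect in the selected cells. Snhg1 was among them, with a genotype difference of 1.12 here and 0.55 in the Olfm4-high cells (difference 0.55, SE 0.0951, edgeR adjusted p = 0.00860). Ascl2 was at 8.79 and 9.31 against 23.0 and 17.1 CPM here and at 149 and 107 against 176 and 121 CPM there (difference 0.92, SE 0.186, edgeR adjusted p = 0.0441), and Rgcc was also called (1.27, SE 0.259, edgeR adjusted p = 0.0441). Ascl2 kept its call under 3 and Rgcc under 4 of 7 alternatives, with edgeR adjusted p of 0.643 and 0.709 without Lgr5+WT 1, and Ascl2 also lost it without Lgr5+Setdb1KO 2. Gkn3, another gene of the crypt base list, was at 16.1 and 20.2 against 34.8 and 18.3 CPM here, with overlapping genotypes, and at 141 and 158 against 112 and 97.1 CPM there (difference 0.92, SE 0.182, edgeR adjusted p = 0.0337), and was called under 7 of 7 alternatives. Phgr1, an epithelial gene of the villus, differed less between genotypes here than there (-0.54, SE 0.0813, edgeR adjusted p = 0.00173). Without Lgr5+WT 1 the calls of Snhg1 and Phgr1 were lost too (edgeR adjusted p = 0.170 and 0.0833). Both genotypes of Ascl2 and Rgcc were below the Olfm4-high level. The populations were split on Olfm4, whose own level differed between genotypes, so for all these differences of genotype effects, those of Ascl2, Gkn3 and Rgcc included, a shift of cells across the Olfm4 limit and a change within a population cannot be told apart.

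The same selection in the lineage-traced libraries gave 143 and 43 cells in the wild type and 107 and 476 in Setdb1-KO. These cells carried far more Paneth transcripts, with a list sum of 108680 and 80807 CPM in the wild type and 28851 and 10246 CPM in Setdb1-KO, and free RNA could make up 22.5%, 22.6%, 7.81% and 5.17% of their UMIs. Leaving out cells with markers of other lineages kept 4 and 1 cells in the wild type and 77 and 314 in Setdb1-KO. Genotypes were compared over the whole selection and not in that subset. Of 5445 genes tested, 10 were higher and 90 lower in Setdb1-KO (edgeR, 1.84%). Enterocyte genes were lower for 16 and higher for 1 of 33 measured members (median -1.30, beside -0.01 over all genes), with Apoa1, the apolipoprotein of high-density particles, at 224 and 490 against 9.40 and 12.0 CPM and Alpi, intestinal alkaline phosphatase, at 84.9 and 130 against 6.71 and 5.34 CPM. Free RNA could supply up to 133, 140, 9.88 and 4.14 CPM of Apoa1 and up to 23.9, 17.8, 0.995 and 0.541 CPM of Alpi. All 8 Paneth genes were lower as well (median -2.39), in step with the list sum above, and the part of that RNA in the enterocyte values was not tested. Of the genes called in the Lgr5+ libraries, 15 higher and 12 lower ones were measured here, and 2 higher ones, Gm42031 (log2 2.68) and Eif3j2 (2.99), and 0 lower ones were called in the same direction. All lower ones but Gipc2 (0.03) had negative log2 differences here without a call, from -0.10 for Smim8 to -1.85 for AA467197. The higher ones had both signs. Neither set was tested as a whole. Gstm3 (log2 -1.56, SE 0.331, edgeR adjusted p = 0.00307) and Defa21 (log2 -1.69, SE 0.405, edgeR adjusted p = 0.0128), both called higher in the Lgr5+ libraries, were called lower here. Sis was lower here too (log2 -2.07, SE 0.482, edgeR adjusted p = 0.00928), opposite to its value in the Lgr5+ libraries. This value rests on 29, 6, 8 and 17 UMIs, and the call was lost without wild-type replicate 1 (edgeR adjusted p = 0.989) or Setdb1-KO replicate 2.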

How the data were processed

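Droplet-based 3′ single-cell libraries of sorted mouse ileal cells were analysed: 2 Lgr5+WT, 2 Lgr5+Setdb1KO and 4 lineage-traced. The authors deposited unfiltered UMI counts per barcode over 32286 features, made with Cell Ranger (6.1.1 per the submitters' notes, which also name Seurat 5.0.3; the file headers name a different Cell Ranger major version) on mm10; the annotation version is not given in the sources used here. The deposited total RNA-seq, chromatin accessibility and H3K9me3 data were not used here. One label speaks of livers, while the protocol and tissue labels name the ileum.

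Cells were selected by the limits given in the results. The limits, members and gene lists were chosen with earlier results of these data known. UMIs were summed per library and population, and genes passing edgeR's filter were tested with edgeR 4.0.16 (TMM, quasi-likelihood, Benjamini-Hochberg adjustment at 0.05, R 4.3.3, limma 3.58.1). Genotypes were compared over the 2 libraries each; populations were compared with the library as a term, and the difference of genotype effects as the interaction in that fit. Single values were compared by exact permutation tests (scipy 1.17.1). P-values measure the spread between these 2 libraries per genotype. Named genes passed adjusted p, an absolute log2 difference of 1, 10 CPM on average and no overlap or the same direction in all 4 libraries, at most 12 per direction by adjusted p, plus fixed marker genes and members of the fixed lists. For the difference of genotype effects, the 5 genes per direction with the smallest adjusted p under 0.05 were named, with no limit on size, level or overlap. Ly6e, Plscr1, Plscr2, Kcne3, Rgcc, Muc13, Eif3j2, H2-D1, Zfp791, Gstm3, Pigr and the neighbours Adh1 and Hdhd3 were named after their values were seen, as were Ascl2, Gkn3, Snhg1, Rgcc and Phgr1 for the difference of genotype effects and Gcg and Cdkn2d for the order of levels.

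Doublets were kept; a rebuilt DoubletFinder (pN 0.25, pK 0.09, 10 components, 0.8% per 1000 cells) marked 249, 354, 96 and 1142 barcodes of the Lgr5+ libraries and these were left out only as an alternative. Other alternatives were DESeq2 1.42.0, its size factors, no filter, other limits, thinning to 3000 UMIs, each library left out and a replicate block. The test script was tested on simulated data. Gene positions are from GENCODE on GRCm38 and promoter sequences from RefSeq. Upper limits at 0 counts cover counting error only. The free RNA limits are point ratios and include no counting error.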

Additional observations from a re-analysis of the deposited data

Results flagged for a closer look

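For 19 genes, the genotype effect in the dividing Olfm4-low cells differed from that in the dividing Olfm4-high cells of the same libraries, by the test of the difference itself (edgeR quasi-likelihood, adjusted p under 0.05), and the 5 with the smallest adjusted p in each direction are given here. Values are log2 genotype differences in the Olfm4-low minus those in the Olfm4-high cells. Pccb, a subunit of mitochondrial propionyl-CoA carboxylase, had -1.34 (SE 0.165, edgeR adjusted p = 1.80e-04), at 43.2 and 45.6 CPM in Lgr5+WT against 30.4 and 30.1 in Lgr5+Setdb1KO here, and at 16.5 and 22.3 against 32.1 and 33.1 CPM in the Olfm4-high cells, so the genotypes stood in opposite order in the 2 populations. Ly6e had -0.66 (SE 0.0983, edgeR adjusted p = 0.00156), at 120 and 107 against 212 and 197 CPM here and at 95.7 and 92.0 against 284 and 245 CPM there, the same direction in both. Pccb and Ly6e kept their call under all 7 alternatives run for them.

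The 5 Paneth cell genes AY761184 (1.11), Defa17 (1.04), Defa30 (0.97), Lyz1 (1.16) and Defa36 (1.49), defensins and a lysozyme with close paralogues among them, lost their call when cells with markers of other lineages were left out, and their genotypes overlapped in the Olfm4-low cells. AY761184 was at 133, 274, 190 and 608 CPM there, of which free RNA could supply up to 145, 272, 137 and 707 CPM. For Defa30 the level was 220, 368, 340 and 1556 CPM and the free RNA limit 220, 368, 230 and 1130 CPM, and for Defa36 6.41, 10.9, 9.05 and 27.6 against 6.59, 10.6, 6.59 and 27.0 CPM. The limit is the lowest ratio over the Paneth list, so for genes of that list it cannot exceed the level. Defa30 set it in both Lgr5+WT libraries, so its level and limit are equal there by construction. The limit was lower relative to the level for Defa17 (17.6, 41.7, 21.1 and 67.1 against 7.66, 10.7, 7.17 and 32.7 CPM) and for Lyz1 (39.4, 83.1, 64.5 and 264 against 29.6, 46.4, 20.3 and 153 CPM). Chga (-1.90), an enteroendocrine granule protein, had 62 of 94, 76 of 129, 12 of 24 and 72 of 213 UMIs of the Olfm4-low cells in 1 cell of each library and lost its call in the same way. Its difference was -0.13 without Lgr5+Setdb1KO 2 and 0.26 with doublets removed, neither called. The lists by which cells were left out hold Defa17, Defa30, Lyz1 and Chga, so for these genes the lost call is no independent check. Ccl5 (-7.54) and Gzma (-6.30) rested on single cells in both populations. Of their summed UMIs, 1 cell held 210 of 218 and 113 of 122 in the Olfm4-low cells of Lgr5+WT. In the Olfm4-high cells 1 cell held 130 of 146 and 9 of 17 in Lgr5+WT, and 157 of 159 and 70 of 74 in Lgr5+Setdb1KO. The Olfm4-low cells of Lgr5+Setdb1KO 1 held 0 UMIs of both genes, so these fitted values depend on the prior count and are no bound.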

How the results depend on the processing

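Of the alternative values of the named genes, 307 of 317 kept their call for the genotype comparison, 360 of 360 and 336 of 336 for the populations, 59 of 68 for the difference of genotype effects (8 lost, 1 reversed) and 139 of 154 in the lineage-traced libraries. The 35 genes called between genotypes became 60 with DESeq2 (27 higher, 33 lower), 359 without a filter on low counts (169 and 190), 79 with at least 5 mitosis UMIs (37 and 42), 84 with doublets removed (36 and 48) and 122 to 305 with 1 library left out, where the lone library is assumed to vary like the others. The 4351 genes past the threshold against Olfm4-high cells became 2446 with DESeq2 (1410 and 1036). The 19 genes with different genotype effects became 32 to 107 with 1 library left out: 32 and 48 without Lgr5+WT 1 or 2, and 107 and 80 without Lgr5+Setdb1KO 1 or 2. The difference of the median coefficient of variation turned from 0.182 to -0.548 points over genes with a mean of at least 0.5 UMI, and ranged from -2.02 to 2.39 with 1 library left out (below 0 without Lgr5+WT 1 or Lgr5+Setdb1KO 2). Chga turned to 0.26 with doublets removed. The causes were not tested. Leaving out cells with markers of other lineages, dividing cells as the denominator with thinning or without doublets, and the comparator without limits on other lineages were alternatives chosen after seeing the data.

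The correlation of deviations between same-numbered libraries was 0.0633 over 2 pairs. With 2 libraries per genotype the deviations of the second pair mirror those of the first. The value therefore cannot show whether replicate numbers pair the samples. A replicate block gave 19 higher and 20 lower genes between genotypes and 25 and 124 in the lineage-traced libraries. With the block, 1500011B03Rik, 2210407C18Rik, Nat8, Defa21, Sis, Gstm3, Gipc2, Smim8, Zfp791 and Plscr1 were not called between genotypes.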
